A study of Mus musculus with 20 samples.

Results

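A list of 37 mouse genes that mark microglia and other macrophages was followed through cultured forebrain slices. The genes were chosen by name, with earlier results of these data known. All 37 of 37 were found by their Ensembl identifiers in both deposited tables, which hold 19722 genes at 4 h and 51912 gene identifiers at 24 h. The slices came from pups at postnatal day 4 and had been kept in medium with 5% horse serum for 4 h or 24 h, without a serum-free arm among the libraries used here. The 4 h table compares 3 libraries of wild-type (WT) slices with 3 labelled as knockout (KO) of Tnfaip6, whose product, TSG-6, is secreted and attaches to the matrix polysaccharide hyaluronan. The 24 h table holds, for each sex, 3 libraries of heterozygous (Het) and 4 of KO slices, so that the controls differ in genotype between the tables. The treatment text of the 24 h samples calls their controls WT while titles and genotype fields say heterozygous, and the titles were followed. No label gives the construction of the Tnfaip6 allele, the sex of the 4 h samples, or whether replicates are different pups, so a p-value here speaks only of the spread from library to library, which may be technical.

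Microglia are the resident macrophages of the brain parenchyma. They depend on signalling through the receptor encoded by Csf1r and on the transcription factors encoded by Spi1 and Irf8, and in the undisturbed brain they carry sensors such as the fractalkine receptor Cx3cr1 and the purine receptor P2ry12. When they engulf debris or meet damaged tissue, the lipid-sensing receptor Trem2 and its adaptor Tyrobp signal in them, and genes such as Spp1, Gpnmb, Lgals3 and Apoe are known to rise while the sensor genes are known to fall. A separate set of macrophages lives in the meninges and around vessels and is told apart by Mrc1, Cd163 and Pf4.

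Per-library levels are given as CPM, the reads of a gene scaled to the depth of its library, with 1 TMM scaling over both tables, and are listed in the order of the replicate numbers. Depth ranged from 11411532 to 15030171 whole reads in the 4 h table and from 8482933 to 18051300 in the 24 h table. Neuronal markers summed to 5326 to 7853 CPM and astrocyte and radial glia markers to 2581 to 5716 CPM over the 20 libraries. Tnfaip6 itself read 5.46 to 7.49 CPM in WT and 3.29 to 6.70 CPM in KO libraries at 4 h, and 3.37 to 6.30 CPM in Het and 5.03 to 7.86 CPM in KO libraries at 24 h, over the whole gene, so the libraries are called KO-labelled throughout. The library KO female 2 had no Xist read and 75.5 CPM of the Y-linked Ddx3y, against its label. Choroid plexus reads entered 3 libraries, with Ttr, the transthyretin gene of choroid plexus epithelium, at 1431, 2652 and 448 CPM in KO female 1, KO female 3 and KO male 3. The fibroblast gene Dcn was highest in KO male 1, at 139.7 CPM. At 4 h, Xist was at 406 and 209 CPM in WT 1 and KO 1 and near 0 in the other 4.

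Spi1 encodes PU.1, the factor that binds purine-rich sites in front of many macrophage genes, so the start regions of the members were read for its core. RefSeq promoter entries on GRCm38.p6 were matched for 28 of the 37 genes, with 36 promoters among them, and the 250 bases before each start were searched on both strands for the PU.1 core GAGGAA, the AP-1 motif TGANTCA and the E-box CACGTG. Overlapping motifs were each counted. The PU.1 core was found for 16 of the 28 genes (57.1%), beside 25.9% of all 27025 genes with a promoter. AP-1 motifs were found for 3 genes (10.7%, beside 7.82% of all) and E-boxes for 2, P2ry12 and Siglech (7.14%, beside 6.86%). A match is a run of letters in this window and not a measured binding site. The 6 windows below are those of a complement gene, of Trem2 and P2ry12 as receptors, of Spp1 and Gpnmb, and of Pf4, whose levels recur in the results, read 5′ to 3′ on the gene's strand with the PU.1 core in capitals. The windows are chr4:136886201-136886450 (minus strand) for C1qb, chr17:48346151-48346400 (plus) for Trem2, chr3:59262986-59263235 (minus) for P2ry12, chr5:104434861-104435110 (plus) for Spp1, chr6:49036268-49036517 (plus) for Gpnmb and chr5:90772185-90772434 (plus) for Pf4.
C1qb: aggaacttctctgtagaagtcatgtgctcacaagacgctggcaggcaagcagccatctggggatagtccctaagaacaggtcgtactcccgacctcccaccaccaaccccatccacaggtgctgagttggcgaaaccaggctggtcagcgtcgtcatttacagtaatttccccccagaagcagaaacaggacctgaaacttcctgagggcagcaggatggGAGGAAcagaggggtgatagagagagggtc
Trem2: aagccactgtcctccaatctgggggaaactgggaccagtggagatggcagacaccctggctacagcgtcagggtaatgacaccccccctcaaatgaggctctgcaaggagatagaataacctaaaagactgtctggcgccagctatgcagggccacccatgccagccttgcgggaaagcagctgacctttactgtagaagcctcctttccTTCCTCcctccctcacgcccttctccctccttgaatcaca
P2ry12: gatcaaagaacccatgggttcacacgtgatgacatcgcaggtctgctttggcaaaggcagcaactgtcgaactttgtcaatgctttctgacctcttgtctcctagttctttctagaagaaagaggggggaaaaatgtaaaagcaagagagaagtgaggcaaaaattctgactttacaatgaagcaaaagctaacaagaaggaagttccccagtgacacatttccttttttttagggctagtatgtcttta
Spp1: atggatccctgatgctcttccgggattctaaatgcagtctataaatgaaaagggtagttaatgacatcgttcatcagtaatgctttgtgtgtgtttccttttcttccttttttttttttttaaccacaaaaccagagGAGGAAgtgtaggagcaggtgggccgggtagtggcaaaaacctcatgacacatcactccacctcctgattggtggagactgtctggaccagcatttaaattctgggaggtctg
Gpnmb: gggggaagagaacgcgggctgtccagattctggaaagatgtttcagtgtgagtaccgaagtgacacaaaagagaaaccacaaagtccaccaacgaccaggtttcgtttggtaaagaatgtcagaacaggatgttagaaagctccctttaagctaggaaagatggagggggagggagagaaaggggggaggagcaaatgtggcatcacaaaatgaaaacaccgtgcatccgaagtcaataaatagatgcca
Pf4: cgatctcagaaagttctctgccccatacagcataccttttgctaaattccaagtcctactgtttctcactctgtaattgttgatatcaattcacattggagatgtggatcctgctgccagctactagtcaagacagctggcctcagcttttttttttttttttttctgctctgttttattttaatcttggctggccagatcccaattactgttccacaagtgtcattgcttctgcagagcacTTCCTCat
The core ends or starts 8 bases before the start of Pf4, 30 before that of C1qb, 40 before that of Trem2 and 113 before that of Spp1, while the windows of Gpnmb and P2ry12 do not hold these letters.

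Most of the 37 genes stood higher in the 24 h libraries than in the 4 h libraries, and this was the largest contrast that the list showed. In KO-labelled libraries, the only label present in both tables, all 8 libraries at 24 h lay above all 3 at 4 h for 29 of 37 members, all 8 lay below for 1, and the ranges overlapped for 7. Of the 35 members that passed the expression filters of both tables, 28 (80%) lay wholly above, beside 16.5% of the 15090 genes compared, and 1 (2.86%) lay wholly below, beside 15.3%. The 24 h mean was at least 2 times the 4 h mean for 65.7% of these 35, beside 4.51% of all genes, and at least 4 times for 14.3%, beside 0.656%. The median log2 ratio was 1.36 over the members and 0.02 over all genes. In control libraries, WT at 4 h and Het at 24 h, 27 of 35 members (77.1%) lay wholly above, beside 19.4% of all genes, and the median log2 ratio was 1.20. The control mean was at least 2 times higher at 24 h for 20 of 35 (57.1%, beside 2.83%), at least 4 times for 4 (11.4%, beside 0.318%), and at most 0.5 times for 1 (2.86%, beside 1.52%), wholly below for 1 (2.86%, beside 17.2%). In KO-labelled libraries 1 member, Siglech, was at most 0.5 times, beside 0.915%. No test was made between times, since the tables were produced separately and time cannot be told apart from table or batch. In bulk tissue, a change in the number of cells of a type and a change in the RNA per cell cannot be told apart either.

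**Figure D1:**
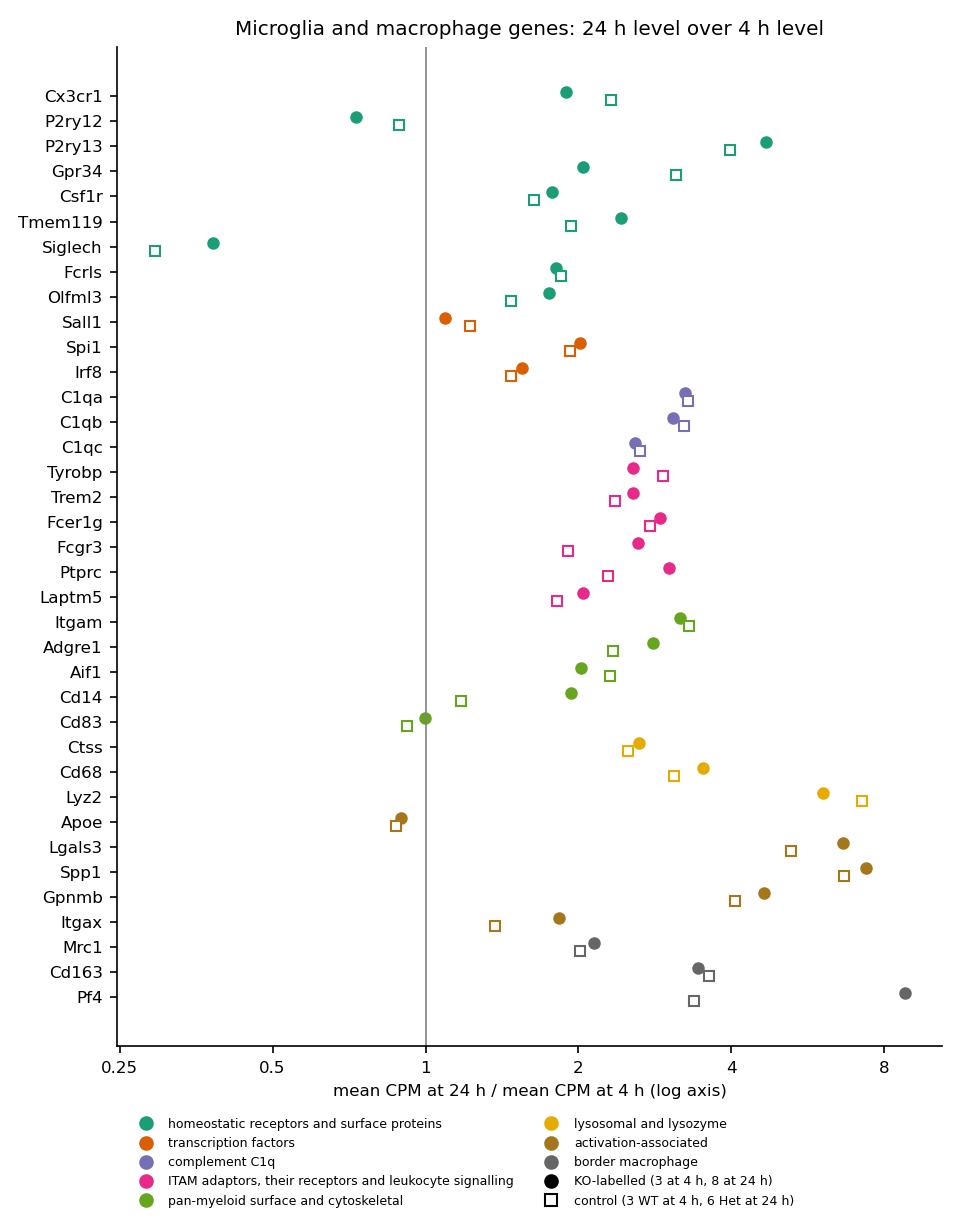
Ratio of each gene's mean CPM at 24 h to that at 4 h on a log axis, with filled circles for KO-labelled libraries (3 at 4 h, 8 at 24 h), open squares for controls (3 WT at 4 h, 6 Het at 24 h) and colours for the members' roles. The circles of Pf4, Spp1, Lgals3 and Lyz2 stand farthest to the right, both symbols of Siglech, P2ry12 and Apoe lie left of the line at 1, and Cd83 lies close to that line.

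Markers of blood leukocytes could be set side by side only for the genes that both tables list. These were 2 of 6 monocyte markers, at 0.213 to 0.399 CPM in sum at 4 h and 0.055 to 1.95 CPM at 24 h, and 1 of 8 neutrophil markers, S100a9, at most at 0.276 CPM and 0.432 CPM. The 4 of 12 lymphocyte markers summed to 2.99 to 5.43 CPM at 4 h and 3.64 to 7.19 CPM at 24 h, a level that exceeds that of some members such as Siglech. The 24 h table lists all of them, and there the sums were at most 2.25 CPM for monocytes, 3.35 CPM for neutrophils and 7.34 CPM for lymphocytes, with the T cell gene Cd3e at 0 in all 14 libraries. Meningeal fibroblast markers also stood higher in the 24 h table, at 387 to 675 CPM summed over 12 genes at 4 h and 481 to 1087 CPM at 24 h. Astrocyte and radial glia markers did too, at 2581 to 3116 CPM beside 3356 to 5716 CPM. Neuronal markers were lower, at 6849 to 7853 CPM beside 5326 to 6088 CPM, and the part of these shifts in the members' levels was not tested.

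Among the 9 homeostatic receptors and surface proteins, 5 stood wholly higher at 24 h, 1 wholly lower and 3 overlapped, with a median ratio of 1.80. Cx3cr1, the receptor for the neuronal chemokine fractalkine, read 24.8, 22.6 and 22.2 CPM in WT and 26, 19.8 and 27.3 CPM in KO-labelled libraries at 4 h. At 24 h Cx3cr1 read 55.7, 54.8 and 49.9 CPM in heterozygous females, 45.9, 57, 53.7 and 44 CPM in KO-labelled females, 62, 51.7 and 49.2 CPM in heterozygous males and 30.7, 47.3, 37.6 and 51.8 CPM in KO-labelled males. Every 24 h library lay above every 4 h library, and within 24 h the lowest values were those of KO male 1 and KO male 3. P2ry12 encodes the ADP receptor that steers microglial processes toward injured cells. It read 3.38, 2.15 and 3.47 CPM in WT and 2.49, 2.42 and 3.86 CPM in KO-labelled libraries at 4 h. Its 24 h values were 2.07, 2.4 and 2.73 CPM in heterozygous females, 1.89, 2.29, 1.98 and 2.72 CPM in KO-labelled females, 3.83, 2.8 and 2.1 CPM in heterozygous males and 1.84, 1.85, 2.46 and 2.02 CPM in KO-labelled males. P2ry12 thus did not share the difference of Cx3cr1: its KO-labelled ratio of 24 h to 4 h was 0.729, and the ranges of the 2 times overlapped.

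The neighbouring P2ry13, another ADP receptor gene, had few reads, at 0.530 ± 0.281 CPM (SD, n = 3) in KO-labelled libraries at 4 h and 2.48 ± 0.611 CPM (n = 8) at 24 h. Both genes lie inside Med12l on the opposite strand, and P2ry12 shares 9 exonic bases with it, so reads of the 2 strands cannot be told apart there. Gpr34, a lysophosphatidylserine receptor gene inside Cask on the X chromosome, had few reads at 4 h, with 1.29, 0.399 and 0.827 CPM in WT and 0.623, 0.925 and 0.735 CPM in KO-labelled libraries. In the 24 h table Gpr34 read 3.25, 2.85 and 2.98 CPM in heterozygous females, 1.383, 2.56, 1.82 and 0.856 CPM in KO-labelled females, 2.78, 3.19 and 0.668 CPM in heterozygous males and 0.432, 2.43, 2.0 and 0.935 CPM in KO-labelled males. The 4 KO-labelled females all lay below the 3 heterozygous females, while the male groups overlapped and Het male 3 was among the lowest of all.

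Csf1r, the receptor for the survival factors CSF1 and IL-34, read 46.1, 31.2 and 37.1 CPM in WT and 35.7, 32.7 and 34.6 CPM in KO-labelled libraries at 4 h. Csf1r at 24 h read 67.5, 61.3 and 51.2 CPM in heterozygous females, 66.2, 80.3, 55.3 and 57.6 CPM in KO-labelled females, 74.6, 55.9 and 63.2 CPM in heterozygous males and 56.5, 61, 50.9 and 60.0 CPM in KO-labelled males. It was higher at 24 h in every library, 1.78-fold in KO-labelled means, with KO female 2 and Het male 1 at the top. Csf1r shares 873 exonic bases with Hmgxb3 on the opposite strand, and Hmgxb3 read 42.6 to 55.7 CPM over the 20 libraries. Fcrls, an Fc receptor-like gene of rodent microglia, read 29.2, 23.8 and 25.7 CPM in WT and 21.2, 20.7 and 26.4 CPM in KO-labelled libraries at 4 h. In the 24 h table Fcrls lay above the 4 h range in all 14 libraries, with 50.3, 45 and 47.1 CPM in heterozygous females, 39.7, 56.3, 45.6 and 35.4 CPM in KO-labelled females, 65.7, 43.8 and 39.8 CPM in heterozygous males and 38.5, 40.1, 34 and 38.3 CPM in KO-labelled males. Het male 1 was again the highest library and KO male 3 the lowest.

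Olfml3, a secreted protein of microglia, averaged 8.12 ± 0.373 CPM at 4 h and 14.2 ± 1.81 CPM at 24 h in KO-labelled libraries. Tmem119, a surface protein used to tell microglia from other macrophages, averaged 2.38 ± 0.107 CPM and 5.78 ± 1.87 CPM, and its ranges overlapped through KO female 3, which read 2.48 CPM. Siglech, a sialic acid-binding lectin, was the only member that stood wholly lower at 24 h, at 3.39 ± 0.476 CPM beside 1.29 ± 0.677 CPM, a ratio of 0.382 (controls 0.293).

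Of the 3 transcription factors, Spi1 and Irf8 stood higher at 24 h and Sall1 overlapped. Spi1, which encodes PU.1, read 4.74, 4.54 and 3.97 CPM in WT and 4.98, 3.84 and 4.78 CPM in KO-labelled libraries at 4 h. In the 24 h libraries Spi1 read 8.19, 8.02 and 5.95 CPM in heterozygous females, 9.68, 11.7, 9.14 and 7.39 CPM in KO-labelled females, 10.7, 8.91 and 9.25 CPM in heterozygous males and 8.76, 8.09, 10.5 and 7.94 CPM in KO-labelled males. KO-labelled females held the highest value, in KO female 2, and the ratio between times was 2.02. Irf8, a factor of the interferon regulatory family that macrophages need to mature, averaged 6.88 ± 0.966 CPM at 4 h and 10.7 ± 2.01 CPM at 24 h. Sall1, a zinc finger gene that sets microglial identity and is also expressed in neural progenitors, read 34.5, 29.8 and 30.2 CPM in WT and 30.9, 32.2 and 29.8 CPM in KO-labelled libraries at 4 h. Sall1 values at 24 h were 41, 36.2 and 40.9 CPM in heterozygous females, 27, 32.1, 34.8 and 37.4 CPM in KO-labelled females, 41.2, 41 and 31.3 CPM in heterozygous males and 34.2, 31, 32.9 and 42 CPM in KO-labelled males. They spanned the 4 h values, with a ratio of 1.09.

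The 3 chains of C1q, the molecule that starts the classical complement pathway and is made in brain mainly by microglia, kept close to each other. They lie side by side on chromosome 4, from 136880129 to 136898803 (GRCm38), and all 3 stood wholly higher at 24 h. C1qa read 19.7, 13.4 and 18.6 CPM in WT and 16.3, 15.2 and 17.1 CPM in KO-labelled libraries at 4 h. At 24 h the values of C1qa were 64.3, 64.1 and 43.6 CPM in heterozygous females, 48.3, 66.6, 53.6 and 50.4 CPM in KO-labelled females, 65.8, 54.6 and 47.1 CPM in heterozygous males and 51.2, 50.2, 45.7 and 52.6 CPM in KO-labelled males. Het female 3 gave the lowest value and KO female 2 the highest, and the groups overlapped in both sexes. The KO-labelled ratios were 3.24 for C1qa, 3.07 for C1qb and 2.58 for C1qc. Across the 14 libraries at 24 h, with group means removed, C1qa and C1qb varied together (Pearson r = 0.97, permutation p = 4e-05, adjusted p = 0.00048 over 12 pairs, Spearman rho = 0.98, adjusted p = 0.00048, n = 14). Without Het female 3 and KO female 2, the libraries farthest from the median of C1qa, r was 0.96.

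The ITAM-bearing adaptors, their receptors and the leukocyte signalling genes stood higher at 24 h for 6 of 6, with ratios from 2.05 to 3.02. Tyrobp, the adaptor DAP12, read 8.62, 7.09 and 8.93 CPM in WT and 8.27, 9.53 and 9.55 CPM in KO-labelled libraries at 4 h. Tyrobp in the 24 h table read 24.3, 24.6 and 19.2 CPM in heterozygous females, 27.4, 35.2, 23.9 and 19.1 CPM in KO-labelled females, 30.0, 21.1 and 25.7 CPM in heterozygous males and 21.8, 19.9, 19.6 and 20.1 CPM in KO-labelled males. KO female 2 was highest, followed by Het male 1, and all 4 KO-labelled males lay between 19.6 and 21.8 CPM, overlapping the Het range. Trem2, which senses lipids and signals through DAP12, read 5.75, 4.07 and 6.2 CPM in WT and 5.34, 4.62 and 4.96 CPM in KO-labelled libraries at 4 h. Its values after 24 h were 11.7, 13.9 and 10.7 CPM in heterozygous females, 15.4, 17.8, 13 and 11.7 CPM in KO-labelled females, 15.3, 12 and 12 CPM in heterozygous males and 9.95, 13.1, 10.4 and 10.7 CPM in KO-labelled males. KO female 2 was the highest here too, and the Het and KO-labelled ranges overlapped in both sexes. The 2 genes had r = 0.78 over the 14 libraries with group means removed (permutation p = 0.010, adjusted p = 0.0601 over 12 pairs, Spearman rho = 0.72, adjusted p = 0.136), and r = 0.80 without KO female 2 and KO male 2.

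Fcgr3, an activating receptor for immunoglobulin G, read 14.9, 11.5 and 16.7 CPM in WT and 10.7, 8.04 and 13.2 CPM in KO-labelled libraries at 4 h. Fcgr3 read 25.5, 29 and 24.9 CPM in heterozygous females, 26.3, 36, 25.4 and 24.6 CPM in KO-labelled females, 31.9, 25.7 and 27.8 CPM in heterozygous males and 33.5, 26.5, 28.4 and 22 CPM in KO-labelled males at 24 h. KO 2 was the lowest library at 4 h and KO female 2 the highest at 24 h. Fcer1g, the adaptor with which it signals, averaged 6.45 ± 0.740 CPM and 18.7 ± 3.34 CPM at 4 h and 24 h in KO-labelled libraries, and Laptm5, a lysosomal membrane protein of blood-lineage cells, 24.7 ± 0.633 CPM and 50.5 ± 6.76 CPM. Ptprc, the leukocyte phosphatase CD45, read 4.02, 3.35 and 4.14 CPM in WT and 2.85, 2.99 and 2.57 CPM in KO-labelled libraries at 4 h. After 24 h Ptprc read 9.81, 9.14 and 7.4 CPM in heterozygous females, 9.68, 11.3, 7.43 and 7.08 CPM in KO-labelled females, 11.1, 5.99 and 9.06 CPM in heterozygous males and 7.46, 7.28, 8.47 and 8.96 CPM in KO-labelled males. At 4 h all 3 KO-labelled libraries lay below all 3 WT libraries, and at 24 h the Het and KO-labelled ranges overlapped in both sexes.

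Pan-myeloid surface and cytoskeletal genes were split. Adgre1, which encodes the macrophage antigen F4/80, read 13.9, 9.96 and 12.4 CPM in WT and 8.63, 11.2 and 7.81 CPM in KO-labelled libraries at 4 h. The 24 h values of Adgre1 were 30.4, 27.9 and 25.7 CPM in heterozygous females, 29.6, 33.5, 22.6 and 23.5 CPM in KO-labelled females, 30.8, 24.7 and 30.1 CPM in heterozygous males and 25, 20.6, 24.1 and 28.4 CPM in KO-labelled males. All of these exceeded the 4 h range. Aif1, the calcium-binding protein IBA1 used to stain microglia, averaged 2.45 ± 0.796 CPM in KO-labelled libraries at 4 h and 4.94 ± 0.741 CPM at 24 h. Itgam, the integrin CD11b, averaged 1.78 ± 0.286 CPM and 5.64 ± 0.949 CPM, and it shares 3450 exonic bases with the same-strand gene Gm49368, so its level is uncertain. Cd83, an activation marker that neurons also express, overlapped between the times, at 19.2 ± 2.23 CPM and 19.2 ± 2.82 CPM.

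Cd14, the co-receptor that hands bacterial lipids to Toll-like receptor 4, behaved unlike the rest. It read 13.1, 13.8 and 11.6 CPM in WT and 11.7, 12.5 and 13 CPM in KO-labelled libraries at 4 h. Cd14 then read 12.9, 14.6 and 12.8 CPM in heterozygous females, 18.5, 18.4, 15.6 and 15.3 CPM in KO-labelled females, 15.7, 12 and 22.4 CPM in heterozygous males and 64.7, 9.94, 26.7 and 22.9 CPM in KO-labelled males at 24 h. The 4 h libraries were alike, while at 24 h KO male 1 read 64.7 CPM, more than in any other library, and KO male 2 read 9.94 CPM. KO-labelled females all lay above heterozygous females, and the male groups overlapped. KO male 1 is also the library with the highest Dcn, and the part of that difference in its Cd14 was not tested.

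Lysosomal and lysozyme genes stood higher at 24 h for 3 of 3. Ctss, a cysteine protease of the lysosome, averaged 16.8 ± 1.16 CPM and 44.3 ± 7.21 CPM in KO-labelled libraries at the 2 times, and Cd68, a lysosomal membrane glycoprotein, 12.2 ± 2.57 CPM and 42.8 ± 5.68 CPM. Lyz2, the lysozyme of myeloid cells, had the larger ratio, 6.05 in KO-labelled and 7.22 in control libraries. It read 7.68, 5.82 and 5.87 CPM in WT and 6.14, 7.97 and 7.53 CPM in KO-labelled libraries at 4 h. Lyz2 at 24 h came to 58.5, 57.5 and 41.8 CPM in heterozygous females, 63.7, 57, 37.8 and 35.2 CPM in KO-labelled females, 45.4, 34.6 and 41.7 CPM in heterozygous males and 47.7, 42.9, 35 and 29.9 CPM in KO-labelled males. The 4 highest libraries are labelled female, among them KO female 2, whose sex-linked reads go against its label, and KO male 4 was the lowest.

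The 5 activation-associated genes held 3 of the 5 filtered members with a ratio of at least 4. Spp1, osteopontin, a secreted phosphoprotein of phagocytic microglia, read 23.8, 20.6 and 44.4 CPM in WT and 26.6, 29.7 and 27.9 CPM in KO-labelled libraries at 4 h. Its 24 h libraries read 202, 211 and 193 CPM in heterozygous females, 183, 301, 220.3 and 145 CPM in KO-labelled females, 252, 151 and 176 CPM in heterozygous males and 291, 164, 185 and 162 CPM in KO-labelled males. All 14 lay above the 4 h range and the KO-labelled ratio was 7.35, with the highest values in KO female 2 and KO male 1. Spp1 shares 309 exonic bases with the same-strand gene Gm42793, so its level is uncertain. Gpnmb, a transmembrane glycoprotein of lipid-laden macrophages, read 6.03, 4.38 and 7.77 CPM in WT and 4.8, 6.26 and 5.88 CPM in KO-labelled libraries at 4 h. Gpnmb in 24 h libraries was 23.8, 25.8 and 17.9 CPM in heterozygous females, 28.1, 46.3, 32.7 and 21.6 CPM in KO-labelled females, 33.9, 17.8 and 28.5 CPM in heterozygous males and 18.9, 22.9, 19.3 and 19.4 CPM in KO-labelled males. The ratio was 4.63, and KO female 2, at 46.3 CPM, stood above all others.

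Lgals3, galectin-3, a sugar-binding protein of phagocytes, read 7.83, 13.9 and 9.84 CPM in WT and 10.5, 7.47 and 8.36 CPM in KO-labelled libraries at 4 h. For 24 h, Lgals3 read 53.9, 60.2 and 37.6 CPM in heterozygous females, 60.0, 77.8, 64 and 46.9 CPM in KO-labelled females, 61.9, 46.8 and 70.6 CPM in heterozygous males and 54.1, 60.0, 50.2 and 53.7 CPM in KO-labelled males. The ratio was 6.65 and the Het and KO-labelled ranges overlapped in both sexes. Itgax, the integrin CD11c, was low at both times, at 3.02, 0.797 and 2.56 CPM in WT and 1.87, 1.85 and 1.93 CPM in KO-labelled libraries at 4 h. Values of Itgax at 24 h were 2.73, 2.85 and 1.29 CPM in heterozygous females, 3.64, 5.39, 3.36 and 2.88 CPM in KO-labelled females, 2.4, 3.03 and 5.15 CPM in heterozygous males and 2.59, 3.35, 3.19 and 3.19 CPM in KO-labelled males. The 4 KO-labelled females lay above the 3 heterozygous females, but narrowly, since KO female 4 read 2.88 and Het female 2 read 2.85 CPM.

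Apoe, the lipid carrier that astrocytes also make in quantity, did not share the difference between times. It read 967, 802 and 901 CPM in WT and 858, 655 and 806 CPM in KO-labelled libraries at 4 h. Apoe levels at 24 h were 757, 838 and 586 CPM in heterozygous females, 656, 680.0, 984 and 675 CPM in KO-labelled females, 1048, 738 and 713 CPM in heterozygous males and 630.5, 652, 589 and 674 CPM in KO-labelled males. The 2 times overlapped, with a KO-labelled ratio of 0.895. All 4 KO-labelled males lay below all 3 heterozygous males. Apoe and the astrocyte transporter gene Slc1a3 had r = 0.71 over 14 libraries with group means removed (permutation p = 0.0346, adjusted p = 0.104 over 12 pairs, Spearman rho = 0.59, adjusted p = 0.169), and r = 0.38 without KO female 3 and Het male 1, so the relation rests on these libraries.

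Genes of border macrophages stood higher at 24 h for 3 of 3. Mrc1, the mannose receptor CD206, read 6.75, 4.94 and 6.78 CPM in WT and 6.05, 5.98 and 6.61 CPM in KO-labelled libraries at 4 h. Mrc1 values after 24 h were 15.1, 15.2 and 11.2 CPM in heterozygous females, 13.5, 15.8, 11.9 and 11.7 CPM in KO-labelled females, 14.9, 10.9 and 7.16 CPM in heterozygous males and 18.3, 16, 8.19 and 11.4 CPM in KO-labelled males. KO male 1 was highest and Het male 3 lowest, and the ranges of Het and KO-labelled libraries overlapped. Cd163, the haemoglobin scavenger receptor, averaged 1.01 ± 0.114 CPM in KO-labelled libraries at 4 h and 3.47 ± 1.29 CPM at 24 h. Pf4, the chemokine CXCL4 of platelets and border macrophages, read 3.02, 3.35 and 2.56 CPM in WT and 0.889, 2.06 and 1.29 CPM in KO-labelled libraries at 4 h. The 24 h values of Pf4 were 8.63, 13.2 and 8.37 CPM in heterozygous females, 17.3, 8.96, 5.23 and 16.3 CPM in KO-labelled females, 12.7, 6.16 and 11.2 CPM in heterozygous males and 23.9, 9.71, 6.28 and 11.4 CPM in KO-labelled males. Its KO-labelled ratio, 8.77, was the highest of all members, beside 3.37 in the controls.

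**Figure D2:**
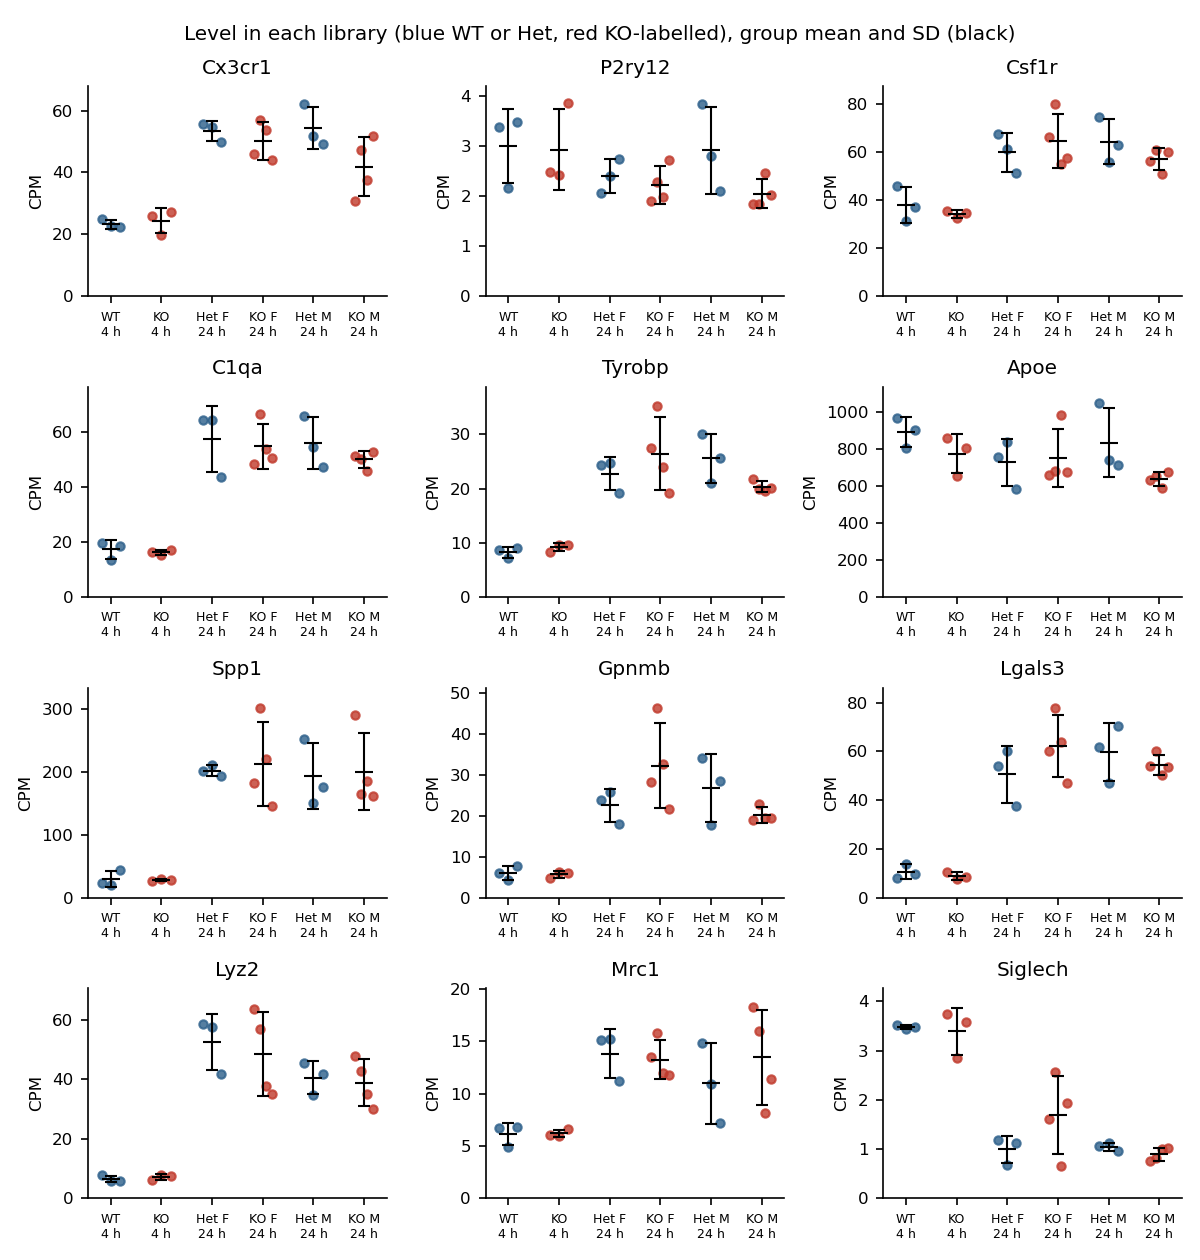
Each panel shows 1 gene's CPM in each library, scaled over both tables, with blue points for WT or Het libraries, red points for KO-labelled libraries, and the mean and SD of each of the 6 groups in black. Most panels step up between the 4 h and the 24 h groups, P2ry12 and Apoe overlap between the times, and Siglech is lower at 24 h.

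Per kilobase of exon, Apoe was the highest member at both times, at 389 ± 49.7 CPM per kb (SD, n = 6) at 4 h and 341 ± 64.8 CPM per kb (n = 14) at 24 h. The next places changed hands. At 4 h C1qb (19.5 ± 1.8), Spp1 (17.5 ± 5.02) and C1qa (16.1 ± 2.2) followed within their spread, whereas at 24 h Spp1 (123 ± 29.6) stood above C1qb (61 ± 8.22) and C1qa (52.1 ± 7.53 CPM per kb), the last 2 of which did not differ beyond their spread. Lyz2 went from place 18 to place 6 among the 37 and Lgals3 from 19 to 10, while Siglech went from 28 to 37 and P2ry12 from 25 to 33. Over the 14 libraries at 24 h, the coefficient of variation was 13.5% for C1qb and 13.7% for Csf1r, beside medians of 7.43% and 7.54% over genes of like level. It was 44.9% for Pf4 and 67.7% for Cd14, beside 13.2% and 10.3%.

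KO-labelled and WT slices at 4 h were compared to ask whether the members' levels differ with the TSG-6 genotype early after serum. Pf4 had the largest log2 fold change, -1.09, followed by Fcgr3, Ptprc and Adgre1, and none of them passed the test. Other genes shared by macrophages lay on both sides of 0. Tyrobp (0.16), Lyz2 (0.17), Itgam (0.09) and Aif1 (0.03) were positive, while Cd68 (-0.19), Laptm5 (-0.16) and Ctss (-0.14) were negative. Of the 6 ITAM and leukocyte signalling members, 5 were negative, with a median of -0.12. Of the 3 lysosomal and lysozyme members, 2 were negative, with a median of -0.14, and the median of the 5 pan-myeloid members was -0.03. Of the 7 homeostatic members tested, 6 had a negative value, with a median of -0.13, from Olfml3 (-0.30) and Fcrls (-0.20) to P2ry12 (-0.03) and Cx3cr1 (0.06). The 3 C1q genes ran from -0.07 to -0.02. With limma on log2(normalised value + 1), 0 of the 35 members tested passed an adjusted p of 0.05, beside 0.0461% of all 15181 genes (7 genes). P2ry13 and Gpr34 were below the filter of a mean value of 10. At an unadjusted p under 0.05 there were 3 members, all lower, beside 13.9% of all genes. The edgeR quasi-likelihood test on the recovered reads also called 0 members, beside 0.0459% of 15256 genes. It had 3 members at an unadjusted p under 0.05, beside 13.6% of genes. DESeq2 gave an adjusted p to 8 members and called 0 of these, beside 2.05% of 7868 genes (161 genes). Over all members, with or without an adjusted p, 3 had an unadjusted DESeq2 p under 0.05. Among all genes with an adjusted p, 14.7% did. With the replicate number as a block, limma called 38 of all genes and again 0 members.

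Pf4 lies on chromosome 5 from 90772435 to 90773383 (GRCm38). It had normalised values of 37.1, 41.4 and 31.5 in WT and 11, 25.6 and 16 in KO-labelled libraries, without overlap, or 36.7 ± 4.95 and 17.5 ± 7.43 (SD, n = 3). Its log2 fold change was -1.09 ± 0.32 (SE, limma adjusted p = 0.183). Without KO 2, the highest of the KO-labelled libraries, the fold change was -1.39 and the adjusted limma p 0.0495, in a fit that called 211 of 15207 genes (1.39%) in place of 7. Fcgr3 differed by -0.43 ± 0.19 (limma adjusted p = 0.316) and Adgre1 by -0.38 ± 0.17 (limma adjusted p = 0.341), both with overlapping groups. Apoe followed with -0.20 ± 0.10 (limma adjusted p = 0.373) and Ptprc with -0.43 ± 0.22 (limma adjusted p = 0.410).

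Over all 15181 genes tested at 4 h, 7680 fold changes were positive and the median was 0.00. Of the 35 members, 25 had a negative and 10 a positive fold change, with a median of -0.06. WT 1 was the highest library for 16 of 37 members, beside 16% of all genes. WT 2 was the lowest for 15, beside 14.5%, and KO 2 the lowest for 13, beside 18.7%. Without WT 1 the median was -0.01, with 17 positive and 18 negative values. It was -0.03 without KO 2, with 15 positive and 20 negative values, and -0.19 without WT 2, with 7 and 29. The median thus moved with single libraries but stayed negative with each of the 6 left out in turn. KO-labelled libraries lay wholly below WT for Ptprc, Olfml3 and Pf4, beside 8.88% of all genes, and wholly above for none, beside 10.1%. Levels of other cell types differed between the same libraries. All 12 meningeal fibroblast markers had a negative fold change, 8 of them at an unadjusted p under 0.05, with a median of -0.38, and their sum was 528 to 675 CPM in WT and 387 to 588 CPM in KO-labelled libraries. All 12 endothelial and pericyte markers were negative too, 9 of them at an unadjusted p under 0.05, with a median of -0.31, at 483 to 568 CPM and 417 to 437 CPM. The part of these cells in the border macrophage and general macrophage values was not tested.

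**Figure D3:**
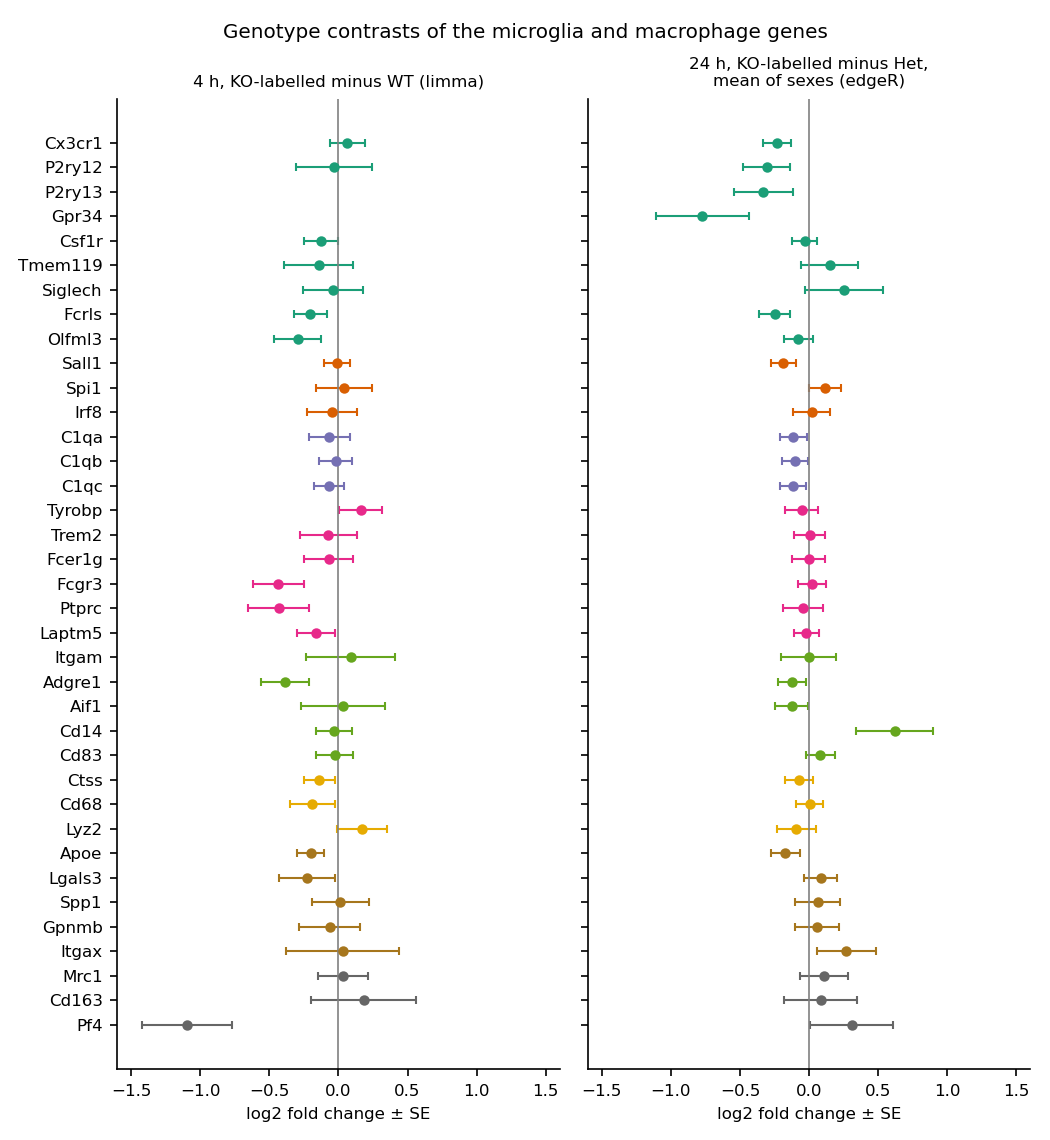
Log2 fold changes of the members with their standard errors, KO-labelled against WT at 4 h (limma, 35 genes) and against Het at 24 h as the mean of the sexes (edgeR, 37 genes), ordered by role. Pf4 at 4 h, Gpr34 and Cd14 at 24 h lie farthest from 0, and no gene passed an adjusted p of 0.05.

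After 24 h no member passed the test of KO-labelled against heterozygous slices either. Of the 9 homeostatic members, 7 had a negative log2 fold change, among them Cx3cr1, Fcrls and Gpr34, and Siglech (0.25) and Tmem119 (0.15) a positive one, with a median of -0.23. Cd14 had a positive value, and the C1q genes read from -0.11 to -0.10. With edgeR's quasi-likelihood test, 0 of 37 members passed in the mean of the sexes, beside 0.0% of 16013 genes. At an unadjusted p under 0.05 there were 4 members, 1 higher and 3 lower, beside 6.62% of all genes. DESeq2 called 0 members, beside 0.0165% of 30265 genes, with 3 at an unadjusted p under 0.05, beside 3.48%. Without Het female 1, without KO female 1 or without Het male 1, no member had an unadjusted p under 0.05. The median over the members was -0.02, with 16 positive and 21 negative values, and it ran from -0.08 without KO female 2 to 0.03 without Het male 1.

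Cx3cr1 averaged 53.5 ± 3.15 CPM in heterozygous and 50.2 ± 6.23 CPM in KO-labelled females, and 54.3 ± 6.78 and 41.8 ± 9.5 CPM in the males (SD, n = 3 and 4). Its log2 fold change over both sexes was -0.23 ± 0.10 (SE, edgeR adjusted p = 0.738). Fcrls differed by -0.25 ± 0.11 (edgeR adjusted p = 0.745), Gpr34 by -0.77 ± 0.34 (edgeR adjusted p = 0.738) and Sall1 by -0.19 ± 0.09 (edgeR adjusted p = 0.758). Cd14 was the member with the largest higher value, 0.62 ± 0.28 (edgeR adjusted p = 0.745), and it was 0.30 without KO male 1. When edgeR was run without its expression filter, 3 members passed an adjusted p of 0.05, Cd14 (0.61), Fcrls (-0.25) and Cx3cr1 (-0.24), beside 0.869% of 30270 genes.

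In females alone, 0 of 37 members passed in edgeR, beside 0.0% of genes, and 4 had an unadjusted p under 0.05, beside 4.1%. DESeq2 also called 0, beside 0.0033% of 30265 genes, with 2 at an unadjusted p under 0.05, beside 1.98%. Itgax (0.72 ± 0.30), Gpnmb (0.51 ± 0.22) and Spi1 (0.35 ± 0.17) had positive values and Sall1 (-0.26 ± 0.12) a negative one, each with an edgeR adjusted p of 1.0. Without KO female 2, the library whose sex-linked reads go against its label, these were 0.52, 0.29, 0.24 and -0.25, and none of the 4 had an unadjusted p under 0.05. Without Het female 3 they were 0.44, 0.38, 0.23 and -0.23, again with none. KO-labelled females lay wholly above heterozygous females for Cd14 and Itgax, beside 2.3% of genes, and wholly below for Gpr34, beside 2.4%. Without its expression filter, edgeR called 1 member, Gpnmb (0.51), beside 0.595% of 30270 genes. The median over the 37 was 0.02, and it ran from -0.11 without KO female 2 to 0.09 without Het female 1.

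In males alone, the count was 0 of 37 in edgeR, beside 0.0% of genes, with 4 at an unadjusted p under 0.05, beside 6.87%. In DESeq2 it was 0, beside 0.0033% of 30265 genes, with 3 at an unadjusted p under 0.05, beside 3.62%. Cx3cr1 (-0.37 ± 0.14), Apoe (-0.39 ± 0.15) and Fcrls (-0.39 ± 0.16) had negative values and Cd14 (0.91 ± 0.39) a positive one, with edgeR adjusted p of 0.718 for Cx3cr1. Without Het male 1 these were -0.26, -0.18, -0.14 and 0.88, and none of the 4 had an unadjusted p under 0.05. Without KO male 1, which held 64.7 CPM of Cd14, the value of Cd14 was 0.28. KO-labelled males lay wholly below heterozygous males for C1qc and Apoe, beside 3.77% of genes, and wholly above for none, beside 3.4%. Without the filter edgeR called 4 members, Apoe (-0.39), Fcrls (-0.40), Cx3cr1 (-0.37) and Cd14 (0.90), beside 0.727% of genes. Over all 16013 genes, 7951 fold changes were positive, with a median of -0.0013. Of the 37 members' fold changes 31 were negative, with a median of -0.13. The median was -0.04 with 25 negative values without Het male 1, and -0.22 without Het male 2. Markers of other cells differed between the same males: 7 of 8 astrocyte and radial glia markers had a negative fold change (median -0.21), as had 7 of 8 of the oligodendrocyte lineage (median -0.20), while 11 of 12 meningeal fibroblast markers had a positive one (median 0.24). Their part in the members' values was not tested.

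The difference between the male and female genotype effects was tested as an interaction, and 0 of 37 members passed in edgeR, beside 0.0% of genes. There were 3 members with an unadjusted p under 0.05, beside 3.86%, all more negative in males. DESeq2 called 0, beside 0.0033% of 30265 genes, with 4 at an unadjusted p under 0.05, beside 1.99%. The 3 in edgeR were Gpnmb (-0.91 ± 0.32, edgeR adjusted p = 0.977), Tyrobp (-0.53 ± 0.24) and Trem2 (-0.50 ± 0.22), followed by Itgax (-0.89 ± 0.43) and Spi1 (-0.47 ± 0.24). Without KO female 2 the values were -0.69 for Gpnmb, -0.38 for Tyrobp, -0.40 for Trem2, -0.70 for Itgax and -0.37 for Spi1. Without the filter edgeR called 2 members, Gpnmb (-0.91) and Apoe (-0.43), beside 0.545% of genes. The median over the members was -0.16, against -0.05 without KO female 2 and -0.04 without Het male 1.

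No member passed the test of males against females, in which KO female 2 counted as female by its label, against its sex-linked reads. In edgeR 0 of 37 members passed, beside 0.0187% of genes. In DESeq2 0 passed, beside 0.0165% of 30265 genes, with 1 at an unadjusted p under 0.05, beside 2.29%. The only member with an unadjusted edgeR p under 0.05, beside 4.42% of genes, was Lyz2, with a log2 difference of males minus females of -0.35 ± 0.14 (edgeR adjusted p = 0.998). Without the filter edgeR called Lyz2 (-0.36) and Cd14 (0.58), beside 0.71% of genes. Without Het female 1, Het female 2, KO female 1 or KO female 2 in turn, no member had an unadjusted p under 0.05. Next to Lyz2 by p were Cd14 (0.58 ± 0.28), Gpnmb (-0.22 ± 0.16), Siglech (-0.39 ± 0.28) and Trem2 (-0.14 ± 0.11).

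At 24 h, single libraries stood apart across many members at once. KO female 2 was the highest of the 14 libraries for 19 of 37 members (51.4%, beside 8.46% of all genes) and lay above the gene's median for 32, by a median log2 deviation of 0.35. Het male 1 was the highest for 7 (18.9%, beside 9.06%) and above the median for 34, by 0.30. At the other end stood Het female 3, the lowest library for 7 members, with a median deviation of -0.19, KO male 3 with -0.16 and KO female 4 with -0.11. These libraries belong to 4 different groups, and Het male 1 carried 10.3 CPM of Xist beside at most 0.541 CPM in the other libraries labelled male. Het male 1 also held the most Slc1a3, the glutamate transporter gene of astrocytes, at 994 CPM beside 596 to 835 CPM in the other 13 libraries, and KO female 2 read 712 CPM. The part of glial content in the members' deviations was not tested.

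**Figure D4:**
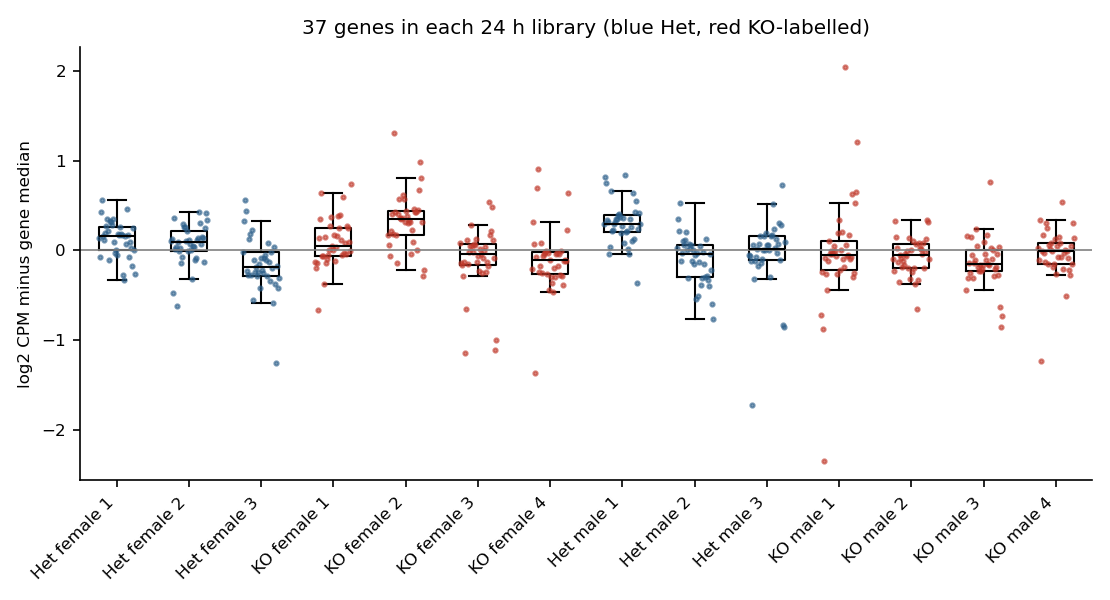
Log2 CPM of each of the 37 genes minus the gene's median over the 14 libraries at 24 h, with 1 point per gene in each library, blue for Het and red for KO-labelled, and a box with the median, the quartiles and whiskers to the farthest point within 1.5 box lengths. KO female 2 and Het male 1 lie above 0 for most genes, and Het female 3, KO female 4 and KO male 3 below.

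Genes of the same pathways outside the 37 members were counted from 6 lists, and 0 passed limma's test at 4 h or edgeR's at 24 h. Over all genes, 7680 of 15181 had a positive fold change at 4 h and 8008 of 16013 at 24 h. Of 35 other homeostatic microglia genes, 33 were tested at 4 h, 22 with a negative fold change, and those with the smallest p were Dock8 (-0.70), a regulator of leukocyte migration, and Itgb5 (-0.22), an integrin chain. Among 14 further macrophage transcription factors, Mef2c was higher at both times, by 0.23 at 4 h and 0.31 at 24 h, each at an unadjusted p under 0.05, and Lyl1 read -0.52 at 24 h. The 14 genes summed to 1001 to 1313 CPM at 4 h and 1026 to 1778 CPM at 24 h in this bulk tissue. Neuronal markers had a positive fold change for 7 of 9 at 4 h, and which cells gave the Mef2c reads was not tested. The edgeR adjusted p of the genes named here at 24 h ran from 0.738 to 0.745. Of 11 ligands of microglial receptors and growth factors, Tgfb2 (-0.27) and Mdk (-0.24) were lower at 4 h and Csf1 (0.26), a ligand of Csf1r, was higher at 24 h. Among 11 complement partners, 8 of the 9 tested at 4 h had a negative fold change, while at 24 h C3 (1.17), the central complement component, and C1ra (0.54), the protease that C1q activates, were higher at an unadjusted p under 0.05. Of 26 further disease-associated and phagocytic genes, 17 of 24 tested at 4 h were negative, with Cd9, a tetraspanin, and Plin2, a lipid droplet coat protein, both at -0.26. At 24 h 15 of the 26 were positive and 11 negative. All 7 further border macrophage genes tested at 4 h were negative, with a median of -0.19, whereas at 24 h 6 of 11 were positive and Ccl24 (1.24), an eosinophil chemokine, had the smallest p.

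Over the 14 libraries at 24 h, 12 pairs of genes were compared with group means removed, and C1qa with C1qb was the 1 pair that passed a Benjamini-Hochberg adjusted permutation p of 0.05. With group means not removed, Trem2 and Tyrobp passed too (r = 0.84, permutation test, adjusted p = 0.0012, Spearman rho = 0.70, adjusted p = 0.0406, beside an r of 0.69 without KO female 1 and KO female 2). Spp1 and Gpnmb had r = 0.67 (permutation test, adjusted p = 0.104, Spearman rho = 0.55, adjusted p = 0.169), and r = 0.76 without KO female 2 and KO male 1. Mrc1 and the fibroblast gene Dcn had r = 0.38 (permutation test, adjusted p = 0.312, rho = 0.41, adjusted p = 0.292), and r = 0.50 without Het male 3 and KO male 3. Cx3cr1 and Spp1, a sensor and an activation gene, had r = -0.01 (permutation test, adjusted p = 0.975, rho = 0.06, adjusted p = 0.868), but r = 0.68 without KO male 1 and KO male 4, so that these libraries decide the value. Cx3cr1 and Mrc1 went likewise from r = 0.18 (permutation test, adjusted p = 0.735, rho = 0.29, adjusted p = 0.496) to r = 0.78 without the same libraries. The other 7 pairs had r from 0.27 to 0.78 and adjusted permutation p from 0.0601 to 0.66.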

How the data were processed

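Total RNA of slices had been made into SMART-Seq V4 libraries, per the labels' protocols. Per the submitters' processing notes, which give no role or order, GRCm38, DESeq2 1.38.3, HTSeq and TopHat2 were used, and how strands were treated is not given in the sources used here. As deposited by the authors, the 24 h values are whole read counts that were not normalised. The 4 h values are, as the authors deposited them, a signal: read counts over a size factor for each library. Whole reads were recovered from it (100% of values whole within 0.05), and edgeR on these reads called 7 of all genes. Gene symbols were found for 19673 identifiers of the 4 h table and 51633 of the other, and 0 columns had no sample.

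The 37 members and all lists were chosen with earlier results of these data known. At 4 h, limma 3.58.1 with an intensity trend was run on log2(value + 1) for genes averaging 10 or more, so folds of low genes are understated. At 24 h, edgeR 4.0.16 (R 4.3.3) was run with TMM scaling, its default filter, the quasi-likelihood F test and 1 mean per genotype and sex over 14 libraries. Both were two-sided, with Benjamini-Hochberg adjustment over all genes tested and a threshold of 0.05, and the fitting code was tested on simulated data. Of simulated log2 changes of 0.585, 63.9% were recovered at 4 h and 72.7% at 24 h in the mean of the sexes. Of changes of 1, 86.9% and 88% were recovered, and smaller changes were not simulated. The changed genes were drawn at random from all genes passing the filter. At 24 h all members but P2ry12 and Aif1 varied more than genes of like level. These rates therefore do not measure recovery among the members. False calls made up 6.92% of those called at 4 h and 4.19% at 24 h. DESeq2 1.42.0, other scalings and filters and libraries left out in turn were alternatives. Relations used 100000 permutations. Values in every library were planned for 10 members and for the 5 with the smallest p in 3 comparisons, and at most 2 genes in each direction were named per other list. Replicates within a group differed by a chi-square statistic of 3.17 to 12.7 per degree of freedom, more than sampling noise. At 4 h, libraries sharing a replicate number deviated together (r = 0.26, 0.14 and 0.18). The main 4 h fit nevertheless took the libraries as unpaired, and the replicate number entered as a block only in an alternative fit. Levels without reads allow up to 3 counts, and such limits cover counting error only.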

Additional observations from a re-analysis of the deposited data

Results flagged for a closer look

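Within the 2 groups of 4 libraries at 24 h, 7 of 74 sets of values held a library far from the other 3, by Dixon's ratio of the gap to the range. Chance gives about 5% of sets, or 1 in 20. KO female 2 stood above the other KO-labelled females in 3 of them: C1qb read 81.3 CPM beside 61 to 62.7 CPM, Fcgr3 36 CPM beside 24.6 to 26.3 CPM, and Cd68 56.5 CPM beside 38.3 to 40.8 CPM. This is the library whose sex-linked reads go against its label. Apoe read 984 CPM in KO female 3, beside 656 to 680.0 CPM in the others, and KO female 3 is the library with the most Ttr. Among KO-labelled males, C1qc was low in KO male 3 at 53.7 CPM beside 59.5 to 59.8 CPM, Itgam was low in KO male 2 at 4.74 CPM beside 6.07 to 6.27 CPM, and Gpnmb was high in KO male 2 at 22.9 CPM beside 18.9 to 19.4 CPM.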

How the results depend on the processing

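Of 1007 values recomputed for 64 results, 957 kept their direction and their side of the threshold or stayed within the replicate spread, 36 changed sign, 8 gained significance and 6 moved. The main fits called 0 members, so no member's fold change had a call to lose, and the 957 do not measure how firm a call is. The choice with the largest effect was the expression filter of edgeR at 24 h: without it, 3 members passed in the mean of the sexes, 1 in females, 4 in males, 2 for the difference between the sexes' effects and 2 for males against females, where the filtered fits called 0; the cause was not tested. Leaving out 1 library at a time gave 0 to 1 members at 4 h, the 1 being Pf4 without KO 2, where 1.39% of all genes were called beside 0.0461%, and 0 at 24 h. With group means not removed, r of Trem2 and Tyrobp was 0.84 and passed (permutation test, adjusted p = 0.0012, beside 0.0601 with them removed). Scaling both tables by library totals put the median log2 ratio of 24 h to 4 h at 0.12 for all genes and 1.47 for the 35 filtered members. Of these 35 in KO-labelled libraries, 29 (82.9%) lay wholly above, beside 24.5% of all genes. Of all 37 members, 30 did.

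Sign changes were these. At 4 h, Spp1 read -0.072 in edgeR, -0.067 in DESeq2 and -0.023 by library totals, and Mrc1 -0.0031 by library totals. At 24 h, Csf1r read 0.041 without the libraries with choroid plexus reads. Without the library whose sex-linked reads go against its label, Spp1 read -0.045 and Gpnmb -0.053, and without the library with the most Dcn, an alternative chosen after seeing the data, Spp1 read -0.055. Leaving out 1 library at a time at 4 h gave -0.027 to 0.20 for Cx3cr1, -0.25 to 0.086 for P2ry12, -0.26 to 0.017 for Csf1r, -0.23 to 0.040 for C1qa, -0.20 to 0.35 for Spp1, -0.27 to 0.13 for Gpnmb and -0.11 to 0.11 for Mrc1. At 24 h it gave -0.091 to 0.029 for Csf1r, -0.14 to 0.013 for Tyrobp, -0.055 to 0.19 for Spp1, -0.064 to 0.16 for Gpnmb, -0.00048 to 0.16 for Lgals3 and -0.0023 to 0.24 for Mrc1.

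With the replicate block, limma at 4 h called 38 genes in place of 7 and no member. At 24 h libraries with the same title number did not deviate together (r from -0.12 to 0.09). With the block by title number, 6, 6, 0 and 4 genes passed in the mean of the sexes, females, males and their difference. No member was among them, and Tyrobp read 0.014 in the mean of the sexes. Title numbers differ from the deposited column numbers for KO-labelled females and some heterozygous males. These results therefore cannot settle whether libraries were paired. Males against females could not be fitted with the block. Depth limits Gpr34 and P2ry13, which were below the 4 h filter, and Siglech, the member with the lowest mean CPM at 24 h.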
